A study of Mus musculus with 8 samples.

Results

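The glycogen-targeting subunits of protein phosphatase 1 (PP1) described here are Ppp1r3b, Ppp1r3c, Ppp1r3d and Ppp1r3e. They were picked by name from a deposited list of 3278 genes, and all 4 were found in it after Ensembl identifiers had been matched to mouse symbols. The list held values for 8 libraries of MIN6-K8 cells, a wild-type insulin-secreting line from a mouse insulinoma, labelled as of IT6 background strain. Controls were 4 libraries of untreated cells, and the other 4 came from cells kept in 40 µM selenomethionine (SeMet), a selenium-bearing form of methionine, for 6 days. All libraries came from a single cell line grown in multi-well plates. Whether the replicates were separate cultures is not stated in the labels. The series title concerns the effect of SeMet on insulin secretion, and the comparison asks how the level of each subunit differs between treated and untreated cells.

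Glycogen is a branched store of glucose, and beta cells accumulate it when glucose is plentiful. PP1 dephosphorylates glycogen synthase, which activates it, and glycogen phosphorylase, which inactivates it. Its catalytic subunit reaches these enzymes through targeting subunits, each of which binds both PP1 and glycogen. Ppp1r3b is the subunit best known from liver, where phosphorylated glycogen phosphorylase inhibits it. Ppp1r3c, also called protein targeting to glycogen (PTG), and Ppp1r3d are widely expressed, and both are substrates of the laforin and malin complex, which marks them for ubiquitination. Ppp1r3e is a further member of the family with the same targeting role.

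All 4 subunits had lower levels in every SeMet library than in any control library. The mean level under SeMet was 55.2% of the control mean for Ppp1r3c, 66.6% for Ppp1r3b, 76.9% for Ppp1r3d and 85.9% for Ppp1r3e. The genes were chosen from this contrast, in a list that its name says was made of differing genes, so these values are a description and carry no test. Across the list, 53.0% of genes passed a limma adjusted p of 0.05 as lower under SeMet and 47.0% as higher. The groups did not overlap for 85.8% of listed genes, and for 45.6% every SeMet library lay below every control, as it did for the 4 subunits. In bulk RNA of this kind, fewer cells that express a gene and less of its RNA per cell cannot be told apart.

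The promoters of Ppp1r3c and Ppp1r3d are shown because windows were at hand for these 2 genes only, while all 4 subunits were lower. Both windows hold short letter patterns that also occur in carbohydrate-responsive and hypoxia-responsive promoters. The patterns are not specific to such promoters, and a part of these patterns in the subunit levels was not tested. The windows run from 250 bases before to 50 bases after the RefSeq start on GRCm38.p6, and both lie on the minus strand, at chr19:36736555-36736854 and chr2:178414414-178414713. They are written 5′ to 3′, and capitals mark ACGTG or GCGTG read on either strand. The table used here matched 2 of the 4 genes, and Ppp1r3b and Ppp1r3e were not matched.
Ppp1r3c: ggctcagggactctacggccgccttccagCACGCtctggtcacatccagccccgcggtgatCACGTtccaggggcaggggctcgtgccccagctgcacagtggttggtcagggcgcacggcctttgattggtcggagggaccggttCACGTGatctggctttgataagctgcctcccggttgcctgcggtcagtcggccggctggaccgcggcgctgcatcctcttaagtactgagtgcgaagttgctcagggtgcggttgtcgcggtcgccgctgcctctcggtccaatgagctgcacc
Ppp1r3d: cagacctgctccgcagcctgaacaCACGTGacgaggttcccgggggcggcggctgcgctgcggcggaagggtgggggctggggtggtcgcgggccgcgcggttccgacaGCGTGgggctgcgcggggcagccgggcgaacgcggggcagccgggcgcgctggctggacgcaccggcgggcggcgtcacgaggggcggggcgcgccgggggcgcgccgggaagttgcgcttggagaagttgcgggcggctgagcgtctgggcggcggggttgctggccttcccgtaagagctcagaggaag
Each window held the palindrome CACGTG, the core that MYC-family, clock and carbohydrate-response factors bind, 1 time. Its first base lay 104 bases before the start in Ppp1r3c and 226 bases before it in Ppp1r3d. CACGTG contains ACGTG on both strands, so the counts of 3 ACGTG matches in Ppp1r3c and 2 in Ppp1r3d include it. GCGTG was found 1 time in each. Among 32851 promoter windows of the same length, 7.15% held CACGTG, 19.6% held ACGTG, 32.4% held GCGTG and 8.24% held both of the shorter patterns. GC content was 65.3% in the Ppp1r3c window and 77.0% in the Ppp1r3d window, against a median of 52.7% over all windows. All of these patterns contain CG, and the shares were not matched for GC content. They may therefore understate the shares among windows as rich in GC as these. These matches describe the letters only, and binding was not measured.

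The values are normalised counts, read as reads per gene divided by 1 size factor per library, and the reads behind each value were derived from the step of which all values in a library were whole multiples. The listed genes held 8544454 to 11144953 reads per library. All 10 beta cell markers that were looked for were listed, and their summed level was 2155267 to 2386110.2 in controls and 1940974 to 2166644 under SeMet. Of 6 alpha cell markers, Gcg, Irx1 and Irx2 were listed, and their sum was 1053 to 1167 in controls and 1510 to 1754 under SeMet. The PP cell marker Ppy was at 82.8 to 140 and 164 to 235, and Krt7, 1 of 5 duct markers, at 9518 to 10350.1 and 10794 to 11740. Of 5 stromal markers only Col1a1 was listed, at 11.1 to 20.1 in controls and 2.78 to 9.57 under SeMet. No acinar, delta, endothelial, immune, liver or muscle marker was listed, and their levels were not analysed here. The 11 listed mitochondrially encoded genes took 1.46% to 2.10% of the listed sum in controls and 2.71% to 3.04% under SeMet. The beta cell sums, most of which is Ins2, overlapped between the groups, and of the 10 markers 8 fell while Iapp and G6pc2 rose. The listed markers named for other cell types and the mitochondrial share did not overlap between the groups, and their part in the subunit levels was not tested. Of all listed genes 85.8% did not overlap either, and markers off the list could not be seen. All libraries came from a single cell line, so these markers do not show that other cell types were present.

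Ppp1r3c (ENSMUSG00000067279) has 2 exons on chromosome 19, 36731731 to 36736653 on GRCm38, with a coding length of 951 bases. It was the lowest of the 4 in level and differed by the largest fold. Controls 1 to 4 held 85.1, 63.2, 50.7 and 57.5 normalised counts, and SeMet libraries 1 to 4 held 37.3, 42.8, 31.8 and 29.6. Control 1 stood above the other controls, and the lowest control was 1.18 times the highest SeMet library. The means were 64.1 ± 14.9 and 35.4 ± 5.91 (mean ± SD over 4 libraries, as for all means that follow), 1.81-fold lower under SeMet. The log2 fold change, on the log2(value + 1) scale that understates changes of low genes, was -0.83 ± 0.18 (SE). These values rest on 244 derived reads in the 4 controls and 149 in the 4 SeMet libraries. Counting alone would give a coefficient of variation near 12.8% in controls, where 23.2% was observed, and near 16.4% under SeMet, where 16.7% was observed. Without control 1 the log2 fold change was -0.68.

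Ppp1r3b (ENSMUSG00000046794) lies on chromosome 8, 35375739 to 35388139 on the plus strand, and its longest annotated transcript has 3 exons. Controls 1 to 4 held 281, 244, 226 and 240 normalised counts, and the SeMet libraries held 193, 157, 153 and 156. Again control 1 was the highest control, and SeMet 1 stood apart from the other SeMet libraries, on the side of the controls. The means were 248 ± 23.2 and 165 ± 19.0, with a log2 fold change of -0.59 ± 0.10. Without SeMet 1 it was -0.66, and without control 1 it was -0.52. The reads behind these values were 949 in controls and 693 under SeMet.

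Ppp1r3d (ENSMUSG00000049999) is a single-exon gene on chromosome 2, 178411206 to 178414472, with a coding length of 837 bases. Controls 1 to 4 held 581, 517, 513 and 472 normalised counts, and the SeMet libraries held 402, 424, 399 and 378. Control 1 was the highest here as well, and SeMet 4 was the lowest of the 8. The means were 521 ± 44.7 and 401 ± 18.7, with a log2 fold change of -0.37 ± 0.07.

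Ppp1r3e (ENSMUSG00000072494), on chromosome 14, 54872669 to 54877550 on the minus strand, was the highest of the 4 and differed least. Controls 1 to 4 held 734, 761, 743 and 678 normalised counts, and the SeMet libraries held 568, 659, 631 and 645. Its groups came close to each other, with the lowest control at 1.03 times the highest SeMet library. The means were 729 ± 36.1 and 626 ± 40.1, 1.16-fold lower under SeMet, with a log2 fold change of -0.22 ± 0.06. Without SeMet 1, the lowest library for this gene, it was -0.17. No annotated exon of another gene overlaps the exons of any of the 4 subunits.

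**Figure D1:**
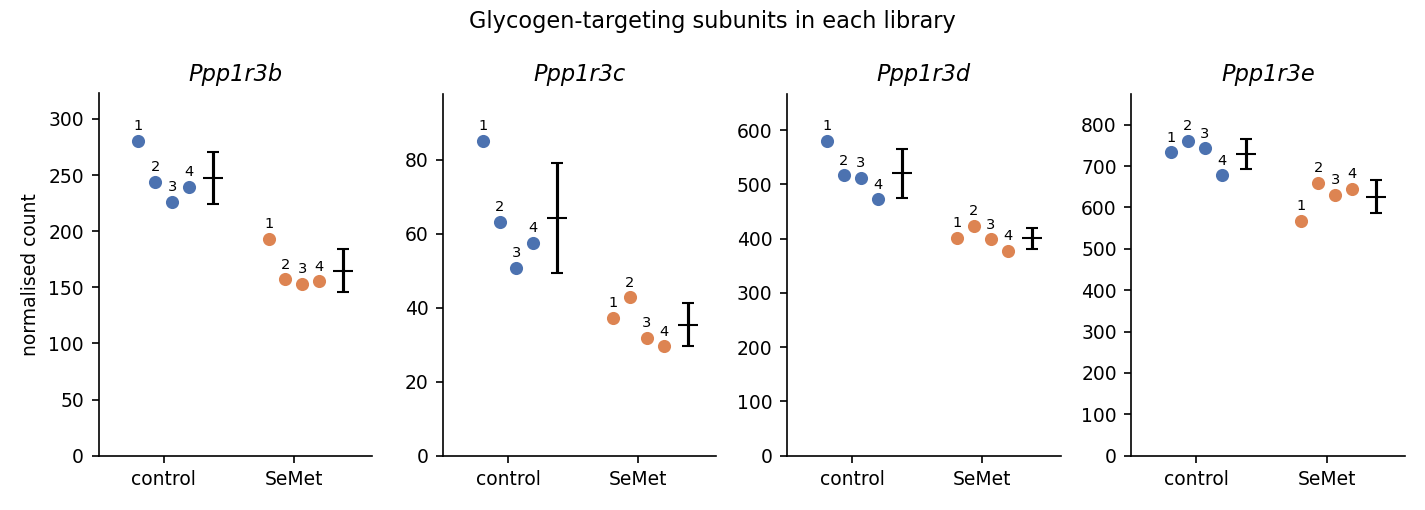
Normalised count of each subunit (vertical axes, each from 0) in the 4 control and the 4 SeMet libraries, numbered by replicate, with mean and SD as black bars. In each panel all SeMet points lie below all control points, by the smallest margin for Ppp1r3e (568 to 659 against 678 to 761).

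The libraries of a group did not order the subunits alike. Relative to its own control mean, control 1 stood 0.43 higher on the log2 scale for Ppp1r3c, 0.18 for Ppp1r3b and 0.16 for Ppp1r3d, but only 0.01 for Ppp1r3e. In SeMet 1 the levels of Ppp1r3b, Ppp1r3d and Ppp1r3e were nearly the same distance below their control means, at -0.35, -0.37 and -0.36, while Ppp1r3c was at -0.74. The other SeMet libraries spread the subunits more widely. In SeMet 4, Ppp1r3c was at -1.06, Ppp1r3b at -0.66, Ppp1r3d at -0.46 and Ppp1r3e at -0.18. Averaged over the 4 subunits, the libraries lay between -0.11 and 0.20 among controls and between -0.59 and -0.41 under SeMet.

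**Figure D2:**
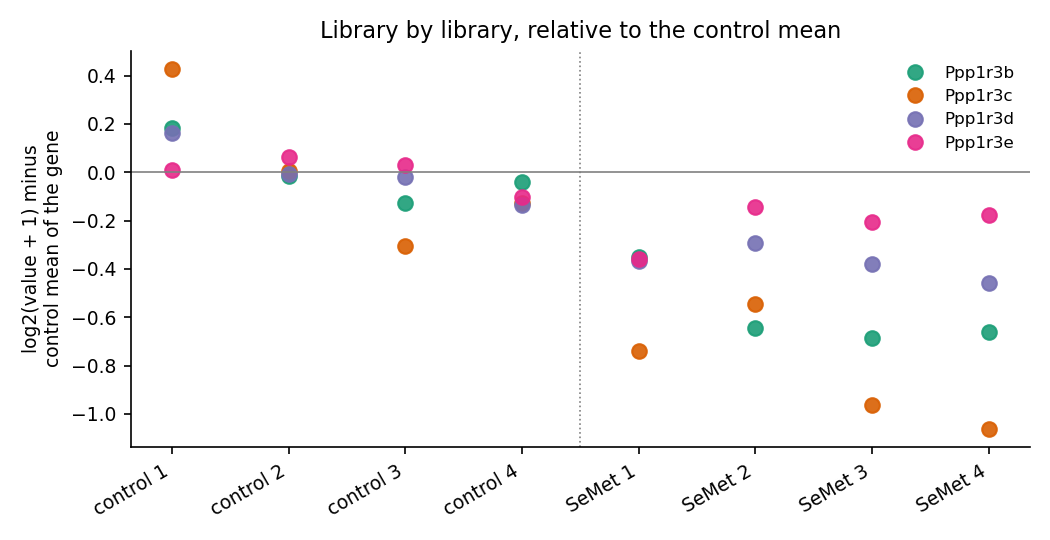
Level of each subunit in each library as log2(value + 1) minus the gene's own control mean, with the zero line as the control mean and the dotted line between the groups. Ppp1r3c ranges from 0.43 in control 1 to -1.06 in SeMet 4, and Ppp1r3e stays between 0.06 and -0.36.

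Levels of different genes were compared per kilobase of annotated exon. In controls the order was Ppp1r3e (291 ± 14.4 normalised counts per kilobase), Ppp1r3d (159 ± 13.7), Ppp1r3b (39.8 ± 3.74) and Ppp1r3c (23.5 ± 5.46). Under SeMet the order was the same, with 249.5 ± 16.0, 123 ± 5.74, 26.5 ± 3.06 and 13.0 ± 2.17 per kilobase. No neighbours in this order overlapped in either group. The closest were Ppp1r3b and Ppp1r3c, at 36.4 to 45.1 and 18.6 to 31.2 per kilobase in controls. Ppp1r3e thus carried 7.34 times the level per length of Ppp1r3b, the subunit best known from liver, in controls (6.48 to 8.14) and 9.54 times under SeMet (7.29 to 10.4), and these ratios overlapped between the groups.

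The summed level of the 4 subunits per kilobase was 513 ± 30.4 in controls and 412 ± 16.3 under SeMet, which is 80.2% of the control value. Ppp1r3e made up 56.7% ± 2.17 of this sum in controls and 60.6% ± 2.29 under SeMet, and Ppp1r3d 31.0% ± 1.04 and 29.8% ± 1.18. The share of Ppp1r3b was 7.76% ± 0.521 and 6.47% ± 0.953. These 3 shares overlapped between the groups. The share of Ppp1r3c was 4.56% ± 0.849 and 3.15% ± 0.468, and its lowest control, at 3.66%, lay just above its highest SeMet library, at 3.63%. Within single libraries the ratio of Ppp1r3e to Ppp1r3c per kilobase was 9.37 to 15.9 in controls and 16.5 to 23.6 under SeMet. This pair sets the smallest fall against the largest, and the ratios of all other pairs of subunits overlapped between the groups.

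**Figure D3:**
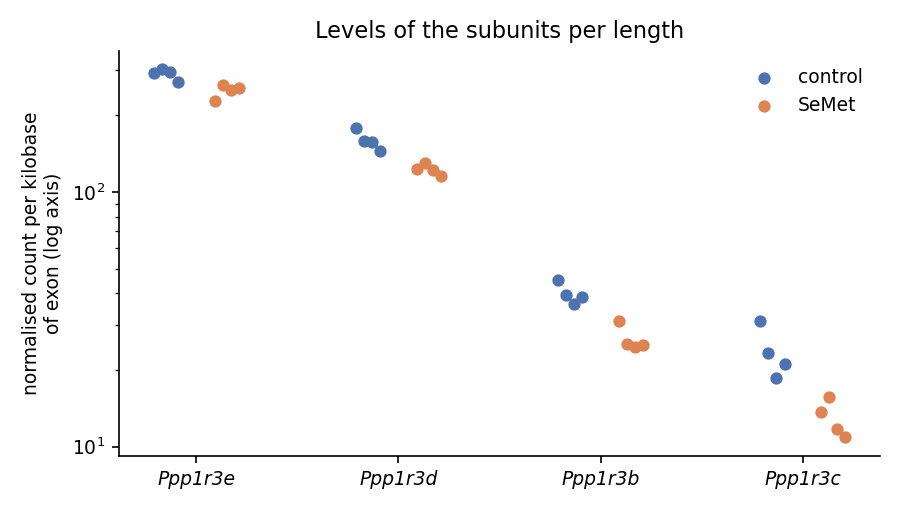
Normalised count per kilobase of exon for each subunit (log axis) in control and SeMet libraries, 1 point per library. The order Ppp1r3e, Ppp1r3d, Ppp1r3b, Ppp1r3c is the same in both groups, from 291 to 23.5 per kilobase in controls.

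The fold was larger the lower the level of the subunit, and the list as a whole has this shape. Among the 820 listed genes with the lowest levels, which include Ppp1r3b and Ppp1r3c, the smallest absolute log2 fold change was 0.23 and the median 0.59. Among the next 819, which include Ppp1r3d and Ppp1r3e, these values were 0.14 and 0.26, and among the 820 with the highest levels 0.08 and 0.18. How fold size and level are related for the family apart from this selection cannot be told here. Counted from the largest fall, Ppp1r3c was number 169, Ppp1r3b 285, Ppp1r3d 543 and Ppp1r3e 1067 among the 3278 listed genes, of which 1737 had a lower mean under SeMet. The median log2 fold change of the 4 subunits was -0.48, beside -0.13 over all listed genes and -0.26 over those with a lower mean.

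**Figure D4:**
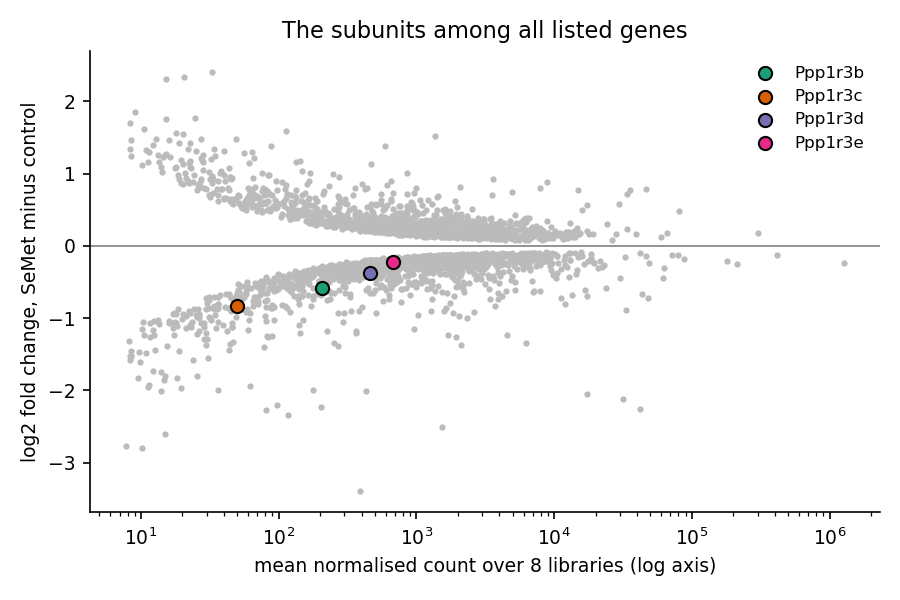
Log2 fold change (SeMet minus control) against the mean normalised count over the 8 libraries (log axis) for all 3278 listed genes in grey, with the subunits in colour. The gap around zero widens toward low levels, and Ppp1r3c, at -0.83, lies where no small fold changes are listed.

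Other genes of glycogen metabolism, taken from lists of 16 enzymes and 26 regulators, went both ways. Of the 42 genes 15 were listed, and in the limma fit 11 fell and 4 rose, or 9 and 3 when p-values were adjusted over all 55450 annotated genes. Nearly every listed gene passes the limma fit (3277 of 3278, or 100%), and 71.4% pass the stricter adjustment, 38.2% as lower and 33.1% as higher. Their median log2 fold change was -0.22, beside -0.13 over all listed genes. Among the 7 listed enzymes 6 fell and 1 rose, with a median of -0.69.

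Of the enzymes that PP1 acts on through these subunits, Gys1, the glycogen synthase of muscle and most other tissues, fell from 1365 ± 170 to 702 ± 76.9 normalised counts (log2 fold change -0.96 ± 0.10). Pygl, the liver-type glycogen phosphorylase, fell from 500.4 ± 48.4 to 267 ± 7.65 (-0.90 ± 0.07). Measured per kilobase within each library, Ppp1r3e was at 1.03 ± 0.0893 times the level of Gys1 in controls and 1.72 ± 0.256 times under SeMet. Ppp1r3d was at 0.563 ± 0.0606 and 0.842 ± 0.0646 times Gys1, and Ppp1r3b at 0.141 ± 0.0173 and 0.182 ± 0.0247 times. For these 3 subunits the ratio to Gys1 was higher in every SeMet library than in any control. For Ppp1r3c it overlapped, at 0.0698 to 0.108 in controls and 0.0776 to 0.0983 under SeMet. The ratios to Pygl did the same, with Ppp1r3e at 4.03 ± 0.460 in controls and 6.44 ± 0.332 under SeMet, and with Ppp1r3c overlapping at 0.292 to 0.386 and 0.286 to 0.397. Gys1 and Pygl both fell more than Ppp1r3c, and only 5.13% of listed genes fell more than Ppp1r3c. Most listed genes therefore rise relative to these 2 enzymes, and the higher ratios are not particular to the subunits. The share of listed genes whose ratios do not overlap was not computed.

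Pgm1, the phosphoglucomutase that links glucose 6-phosphate and glucose 1-phosphate, had a log2 fold change of -0.69 ± 0.10, and the branching enzyme Gbe1 one of -0.53 ± 0.05. Pgm2l1, which makes glucose 1,6-bisphosphate, fell by 0.26 ± 0.08, and with the annotation-wide adjustment it did not pass (limma adjusted p = 0.0724). Hk1, a hexokinase normally kept low in beta cells, was at 39.0 ± 7.31 and 11.9 ± 7.30 normalised counts, a log2 fold change of -1.81 ± 0.35. The enzyme gene that rose was Gaa, which breaks down glycogen in lysosomes, by 0.17 ± 0.04.

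Of the 8 listed regulators 5 fell and 3 rose, near the 53.0% and 47.0% of all listed genes, and their median of -0.13 was that of the whole list. Epm2a, which encodes laforin, fell from 724 ± 62.6 to 427 ± 29.0 normalised counts (-0.76 ± 0.07). Per kilobase, Ppp1r3d was at 0.726 ± 0.0655 times Epm2a in controls and 0.946 ± 0.0377 times under SeMet, while the ratio of Ppp1r3c to Epm2a overlapped between the groups, at 0.106 ± 0.0198 and 0.0996 ± 0.0107. Epm2a fell more than Ppp1r3b, which 8.66% of listed genes exceeded in fall, so most listed genes rise relative to Epm2a as well. Phka2, a regulatory subunit of phosphorylase kinase, fell by 0.22 ± 0.06, and the protein kinase A subunits Prkacb and Prkar2a by 0.18 ± 0.04 and 0.16 ± 0.04. Prkab1 and Prkag2, subunits of the AMP-activated kinase, rose by 0.24 ± 0.04 and 0.26 ± 0.05. Akt2, a kinase of insulin signalling, had a log2 fold change of 0.12 ± 0.04 and the calmodulin gene Calm3 one of -0.09 ± 0.03, and neither passed that adjustment (limma adjusted p = 0.064 and 0.263). After rescaling by the median ratio Calm3 did not pass over the listed genes either (limma adjusted p = 0.18).

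**Figure D5:**
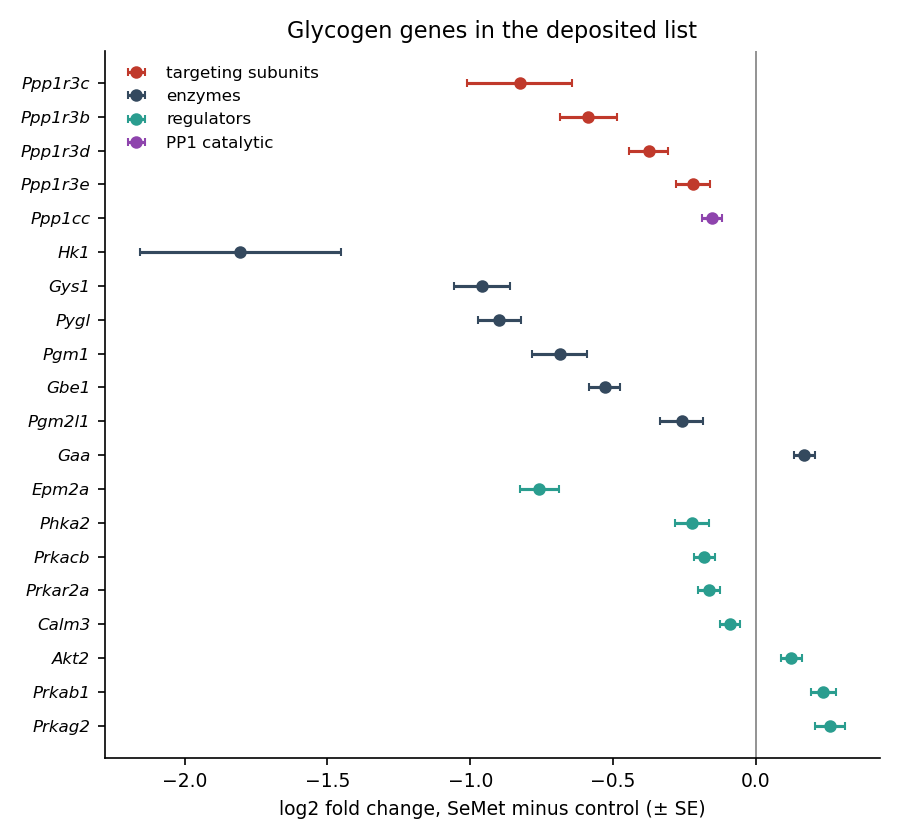
Log2 fold change (SeMet minus control, horizontal axis) with its SE for the listed targeting subunits, the PP1 catalytic subunit, and the enzymes and regulators of glycogen metabolism. The 4 subunits, from -0.83 to -0.22, lie within the range spanned by the enzymes, from -1.81 for Hk1 to 0.17 for Gaa.

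The remaining targeting subunits Ppp1r3a, Ppp1r3f and Ppp1r3g were not listed and were not analysed here. Of the 3 PP1 catalytic subunits only Ppp1cc was listed, and it fell from 4352 ± 36.1 to 3915 ± 148 normalised counts (log2 fold change -0.15 ± 0.04). Per kilobase, Ppp1r3b was at 0.0314 ± 0.00317 times Ppp1cc in controls and 0.0232 ± 0.00181 times under SeMet, and Ppp1r3c at 0.0185 ± 0.00445 and 0.0114 ± 0.00182 times, both without overlap. The ratios of Ppp1r3d and Ppp1r3e to Ppp1cc overlapped between the groups. Ppp1cc fell by close to the list median of -0.13, so these ratios largely restate each subunit's own fall. For 45.6% of listed genes every SeMet library lay below every control before any division. Ratios of other listed genes to Ppp1cc were not computed, so the lower ratios cannot be called particular to the subunits. Of 33 other regulatory subunits of PP1, 5 were listed, 3 fell and 2 rose, near the 53.0% and 47.0% of all listed genes. Ppp1r14b, an inhibitor of PP1, rose by 0.48 ± 0.05 on the log2 scale, and Ppp1r13b, which binds p53, by 0.22 ± 0.05. The PP1 inhibitor gene Ppp1r1a fell by 0.32 ± 0.04 and Ppp1r35, a centrosomal protein gene, by 0.23 ± 0.06.

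A list of 25 genes that respond to glucose or hypoxia had 19 listed members. Of these 17 fell and 2 rose, with a median of -0.74. Over all listed genes 53.0% fell, 47.0% rose and the median was -0.13. The 2 that rose, Txnip and Klf10 (0.50 ± 0.05), are carbohydrate-responsive genes, and they moved opposite to the subunits. The list pools genes of both kinds, so its counts and median do not describe either kind alone. The 4 with the largest fold changes were Ldha, at -2.50 ± 0.15, Adm, at -1.99 ± 0.16, Txnip, at 1.52 ± 0.14, and Slc16a3, at -1.34 ± 0.09. The absolute fold changes of all 4 subunits were smaller. Like the other gene lists, this one was chosen with earlier results of these data known. Its counts and median are therefore a description and carry no test.

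The listed genes whose library-by-library pattern was most like each subunit were found by the root-mean-square distance of log2 values over the 8 libraries, each gene centred on its control mean. For Ppp1r3b they were 6330403L08Rik (distance 0.0803), the growth factor gene Pgf (0.0903) and 2200002J24Rik (0.091). For Ppp1r3c they were Plppr5 (0.151), Fcgbp (0.151) and Tnfaip3 (0.152), and for Ppp1r3d Rtl6 (0.0482), Anxa4 (0.0493) and the retinoblastoma gene Rb1 (0.0497). For Ppp1r3e they were Tor1aip1 (0.0351), Tsc22d2 (0.038) and Agbl5 (0.0382). The median distance to all other listed genes was 0.46 for Ppp1r3b, 0.555 for Ppp1r3c, 0.364 for Ppp1r3d and 0.277 for Ppp1r3e. No subunit was among the 3 nearest genes of another. The closest pair by distance was Ppp1r3d and Ppp1r3e, 0.143 apart, and the farthest Ppp1r3c and Ppp1r3e, 0.494 apart. Distances differ in scale between subunits, as the medians show. By rank, Ppp1r3e was only number 605 in nearness to Ppp1r3d, and Ppp1r3d number 1134 to Ppp1r3e. The nearest subunit by rank was Ppp1r3b, number 61 from Ppp1r3c, while Ppp1r3c was number 494 from Ppp1r3b.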

How the data were processed

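Per the submitters' processing notes, the authors aligned reads with STAR and counted them with featureCounts on mm10. Versions, settings, strand handling and the rule behind the gene list were not given in the sources used here. What the authors deposited is a scaled signal for each gene, taken here to be counts over a size factor. In every library 100% of values were whole multiples of 1 step (0.885 to 1.15) within a tolerance of 1e-06. Reads were derived from these steps. A check restricted to low values did not accept them as whole reads in most columns, so the read numbers given are derived ones and no count test was run.

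The fit used log2(value + 1) and limma 3.58.1 under R 4.3.3, with trended and robust variance and without a filter or further scaling. P-values were adjusted by Benjamini-Hochberg over the 3278 listed genes. Since separate cultures are not stated, p-values reflect the spread between these libraries alone, which may be technical. Positions and exon lengths came from GENCODE M21 (GRCm38, the assembly of mm10), and 3276 identifiers matched a symbol. Some genes of these lists are not reported here. The scripts were tested on simulated data. The subunits and gene lists were chosen with earlier results of these data known. Named genes were the 4 subunits, every listed gene of the glycogen lists and PP1 catalytic subunit, up to 4 of each further list by absolute fold change, and the 3 nearest profiles of each subunit. Klf10 was named in addition.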

Additional observations from a re-analysis of the deposited data

Results flagged for a closer look

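A library far from the other 3 of its group, by Dixon's criterion for groups of 4, was found in 6 of the 80 groups examined. These were the controls and the SeMet libraries of each named gene except Klf10. Chance gives about 5%. Among the subunits this was SeMet 1 for Ppp1r3b, at 193 normalised counts against 153 to 157 in the other SeMet libraries. SeMet 1 also stood apart for Ppp1r1a, at 10470.0 against 9794 to 9821. SeMet 2 stood apart for Fcgbp, at 33.5 against 26.8 to 27.9, and for Rtl6, at 1330.0 against 1258 to 1266. Control 4 stood apart for Akt2, at 3125 against 3250.3 to 3269, and control 1 for 2200002J24Rik, at 59.8 against 47.6 to 48.8.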

How the results depend on the processing

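The log2 fold changes of the 4 subunits kept their sign and moved by less than 1 residual SD under pseudocounts of 0.5 and 10, a mean value of at least 10, rescaling by the median ratio, a constant prior variance, the replicate block and each library left out. Without 1 library they ran from -0.929 to -0.684 for Ppp1r3c, -0.664 to -0.525 for Ppp1r3b, -0.42 to -0.321 for Ppp1r3d and -0.255 to -0.175 for Ppp1r3e. After rescaling they were -0.78, -0.54, -0.33 and -0.18. Counts of calls stayed within 1.5 times, the lower calls over all listed genes at 1253 to 1736. The share of each subunit in the summed level per kilobase depends on gene length. With the longest transcript, Ppp1r3b held 9.23% in controls and 7.65% under SeMet, Ppp1r3d 26.02% and 24.89%, and Ppp1r3e 60.92% and 64.83%, and Ppp1r3c held 2.63% under SeMet. The order of the 4 was the same. Calm3 also missed the threshold without control 2 or SeMet 3 (limma adjusted p = 0.054 and 0.0514). Over all listed genes, same-numbered libraries had correlations of -0.011 to 0.154 and other pairs -0.138 to 0.136, so the numbers were not taken as pairs. For some genes the SE still shrank with the replicate block, as for Gys1 (0.0979 to 0.0532), Pgm1 (0.0974 to 0.044) and Txnip (0.141 to 0.063). For Pygl it did not (0.0743 to 0.0767). Whether same-numbered libraries share a batch was not tested. With the replicate block 1733 genes passed as lower and 1539 as higher, and Ppp1r3c was at -0.83 ± 0.17.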
